A study of Homo sapiens with 6 samples.

Results

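The promoters of the cytosolic ribosomal protein genes were examined for 2 histone marks in OCI-AML3, an established human cell line of acute myeloid leukemia (AML). The members were the autosomal protein-coding genes whose symbol is RPL or RPS followed by a number, with or without A or L, together with RPLP0, RPLP1, RPLP2 and RPSA. They numbered 81, of 19229 autosomal protein-coding genes with a start on GRCh37 and 18775 with one on GRCh38. They were taken by symbol and not by a measured value, although earlier results of these data were known. Of the 81 members, 50 encode proteins of the large subunit and 31 encode proteins of the small subunit, and 8 are paralogs of a standard ribosomal protein gene (RPL3L, RPL7L1, RPL10L, RPL22L1, RPL26L1, RPL36AL, RPL39L and RPS27L). The pattern also fits 3 genes on chromosome X, which were left out.

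OCI-AML3 cells carry a heterozygous mutation of NPM1 (mtNPM1) and of DNMT3A and a homozygous NRAS mutation, which both groups shared. Cells received a control guide RNA (sgNeg) or the guide RNA directed at mtNPM1 (sgNpm1A) and were then cultured for 3 days per the labels, while the text of the study gives a longer time. Acetylation of lysine 27 of histone H3 (H3K27Ac) and trimethylation of its lysine 4 (H3K4me3) were each mapped by ChIPmentation in 1 bulk library per guide, so that 4 peak lists were compared. There was no replicate, so differences between the guides carry no p-value, and each comparison is one of a pair of libraries. All labels name OCI-AML3, although the names under which the H3K27Ac peaks were deposited hold the tag OCI2, while the H3K4me3 names hold OCI3. The meaning of the tags was not stated. The study also used OCI-AML2 cells, into which mtNPM1 was introduced, and whether OCI2 stands for that line was not settled. In that case the H3K27Ac values below would not be those of OCI-AML3 cells.

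A ribosome is built from ribosomal RNA and one copy of most ribosomal proteins, so their genes are among the most actively transcribed in growing cells. NPM1 encodes nucleophosmin, a nucleolar protein with a part in ribosome assembly. The messenger RNAs of ribosomal proteins begin with a cytosine and an unbroken run of pyrimidines, the terminal oligopyrimidine (TOP) motif, through which mTOR signaling controls their translation. H3K27Ac marks active promoters and enhancers, and H3K4me3 marks the nucleosomes next to active transcript starts.

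The TOP motif is laid down in the DNA at the transcript start, and it is the sequence that sets these promoters apart before any mark is considered. The stretches below run from 60 bases before the start to the first 30 transcribed bases, 5′ to 3′ on the strand of the gene, from RefSeq (GRCh38.p14). Capitals mark a TOP-like tract, which is a C followed by at least 4 pyrimidines and which begins within 10 bases of the start. The first set holds the ribosomal stalk proteins RPLP0 (chr12:120201082-120201171, minus strand), RPLP1 (chr15:69452758-69452847, plus) and RPLP2 (chr11:809907-809996, plus), with RPL28 (chr19:55385872-55385961, plus), whose promoter had the highest H3K4me3 peak among members.
RPLP0: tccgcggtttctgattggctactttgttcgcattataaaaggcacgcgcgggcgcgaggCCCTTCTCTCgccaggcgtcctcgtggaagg
RPLP1: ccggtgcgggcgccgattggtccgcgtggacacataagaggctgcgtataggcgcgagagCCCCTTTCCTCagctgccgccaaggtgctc
RPLP2: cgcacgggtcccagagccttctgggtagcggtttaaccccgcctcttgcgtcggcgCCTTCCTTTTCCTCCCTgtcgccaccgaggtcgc
RPL28: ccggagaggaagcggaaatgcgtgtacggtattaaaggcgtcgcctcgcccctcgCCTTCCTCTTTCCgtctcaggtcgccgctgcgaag

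The next set shows small subunit genes with a known place in blood and growth control. RPS14 (chr5:150449710-150449799, minus) lies in the region deleted in the 5q- syndrome. RPS19 (chr19:41860195-41860284, plus) is the gene most often mutated in Diamond-Blackfan anemia. RPS6 (chr9:19380207-19380296, minus) encodes the ribosomal target of S6 kinase, and RPS18 (chr6:33272015-33272104, plus) had one of the widest H3K4me3 peaks among members.
RPS14: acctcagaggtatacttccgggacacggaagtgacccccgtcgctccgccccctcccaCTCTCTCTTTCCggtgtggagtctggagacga
RPS19: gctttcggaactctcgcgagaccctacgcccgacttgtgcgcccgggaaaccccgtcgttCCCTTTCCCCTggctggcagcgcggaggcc
RPS6: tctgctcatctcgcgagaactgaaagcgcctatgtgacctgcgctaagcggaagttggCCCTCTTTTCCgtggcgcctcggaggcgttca
RPS18: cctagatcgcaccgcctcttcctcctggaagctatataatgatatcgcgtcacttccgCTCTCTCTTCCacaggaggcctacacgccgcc

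A pair of promoters in which no such tract was found stood at opposite ends of the H3K27Ac values. RPS29 (chr14:49598681-49598770, minus), a small subunit gene, had the highest H3K27Ac peak among members. That peak (GRCh37 chr14:50063902-50067021) did not cover the canonical start of RPS29 at 50053098. The stretch shown is at the RefSeq gene record start, and the sequence at the canonical start was not read. RPL10L (chr14:46651752-46651841, minus), an intronless copy known for its use in the testis, had no H3K27Ac peak in either list.
RPS29: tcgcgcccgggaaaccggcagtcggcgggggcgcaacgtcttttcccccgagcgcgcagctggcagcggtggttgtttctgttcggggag
RPL10L: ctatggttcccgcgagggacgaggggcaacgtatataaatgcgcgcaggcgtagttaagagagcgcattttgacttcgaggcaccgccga

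Of the 81 members, 64 were matched by symbol in the RefSeq promoter table, which spans 250 bases before to 50 bases after a start. Members without an entry included RPL5, RPL7, RPL8, RPL23, RPL23A, RPL30, RPL37, RPL3L, RPL39L, RPS2, RPS15A and RPS20. A TOP-like tract was present in 53 of 64 member promoters (82.8%, 95% Wilson interval 71.8 to 90.1%) and in 33.6% of 15036 other coding promoters. The first transcribed base was C in 46 of 64 (71.9%, 59.9 to 81.4%) and in 11.0% of the others. Of the 53 tracts, 14 began at the annotated start or 1 base from it, and the rest began farther off within the 10 bases. The tracts had a median length of 11 bases, and the longest, at RPL7A, ran over 23 bases. The 11 members without a tract were RPL6, RPL7L1, RPL10L, RPL13, RPL15, RPL17, RPL26L1, RPL27, RPL32, RPS27L and RPS29, of which 4 are paralogs. Each gene was read at a single start, the one nearest its gene record start. That start lay 7393 bp from the record start at RPL6 and 4635 bp at RPL26L1, and at RPS29 it was not the canonical start. A tract at another start would have been missed.

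Motifs of transcription factors were searched on both strands of the same windows. The ETS type motif CCGGAAG was present in 22 of 64 member promoters (34.4%, 23.9 to 46.6%) and in 14.2% of the others. The YY1 type motif ATGGCGG was present in 11 of 64 (17.2%, 9.88 to 28.2%) and in 7.53% of the others, and the TATA box TATAAA stood in the 50 bases before the start, on the strand of the gene, in 4 of 64 (6.25%) and in 3.98%. The E-box CACGTG was present in 4 of 64 (6.25%, 2.46 to 15.0%) and in 8.72% of the others, and the SP1/KLF type motif GGGCGG in 34 of 64 (53.1%, 41.1 to 64.8%) and 58.7%. The intervals of the tract, the first C, the ETS type and the YY1 type motif thus lay above the share of the other promoters, and those of the remaining motifs included it. The median GC share was 59.7% (95% order-statistic interval 56.7 to 61.3%) in members and 62.7% in others, and the median number of CpG was 25 (22 to 27) and 22. No test was made of these shares, and a match of letters is not a site of binding.

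**Figure D1:**
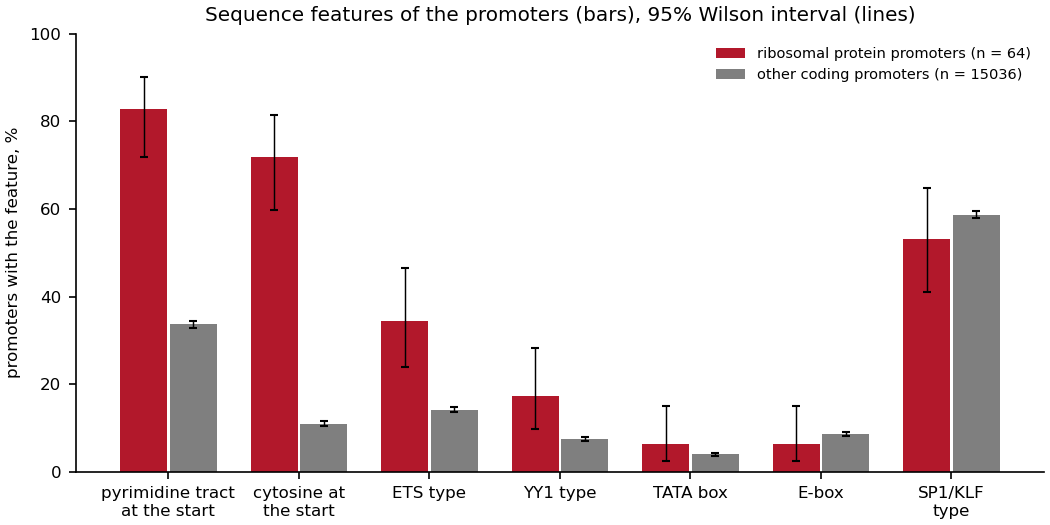
Share of promoters with each sequence feature, in percent, for 64 ribosomal protein promoters (red) and 15036 other coding promoters (grey), in the 250 bases before to 50 bases after the start. Lines are 95% Wilson intervals. The pyrimidine tract (82.8% against 33.6%) and the C at the start (71.9% against 11.0%) show the widest gaps.

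Peaks were counted at a promoter when they overlapped the 1 kb on either side of any annotated start by at least 1 bp. The H3K27Ac lists use GRCh37 and the H3K4me3 lists GRCh38, so positions were compared within a mark only. Strength is given as the authors' fold enrichment and as its percentile among all peaks of the same list, with 0 for a promoter without a peak. Numbers of reads were not part of the lists. The lists held 327715 (sgNeg) and 317059 (sgNpm1A) H3K27Ac peaks and 353628 and 106641 H3K4me3 peaks. Peaks were common enough that windows 20 kb upstream of the member starts held a sgNeg H3K27Ac peak in 59.3% of members and 61.6% of other genes. Both sgNpm1A lists stood apart before any gene was named. Among other coding promoters, a sgNpm1A H3K27Ac peak lay over the start in 7.15%, against a mean of 11.3% at positions 4 to 5 kb away, while in sgNeg the shares were 53.8% and 15.9%. For H3K4me3 the sgNpm1A shares of the others were 1.85% and 2.83%. Since the libraries came from bulk cells, fewer cells with a mark and less of the mark per cell cannot be told apart. Marker genes of cell types were also read, which cannot tell OCI-AML3 from OCI-AML2, since both are AML lines. Of the myeloid markers 8 of 8 had a sgNeg H3K27Ac promoter peak (median percentile 99.1, from 92.2 at LYZ to 99.97 at SPI1), as did 81.2% of all genes. A H3K4me3 peak was present at 7 of 8, with none at LYZ, against 70.4% of all genes. The B cell genes PAX5 and CD79A had no sgNeg H3K4me3 peak, but both had a sgNeg H3K27Ac peak, at percentiles of 66.8 and 69.2. Of the T cell genes CD3E, CD3D and LCK, 2 of 3 had a sgNeg H3K4me3 peak and 3 of 3 a H3K27Ac peak, and of the erythroid genes KLF1 and HBB 1 of 2 and 2 of 2 had one.

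In sgNeg, H3K27Ac covered the ribosomal protein promoters broadly. A peak was present at 79 of 81 members (97.5%, 91.4 to 99.3%), against 81.2% of all genes tested. The median percentile of the strongest promoter peak was 98.6 (order-statistic interval 98.3 to 98.7) in members and 93.2 in other genes, and 77 of 81 members (95.1%) were at or above the 95th percentile, against 46.3% of the others. At or above the 99th percentile were 21 of 81 members (25.9%), against 16.0%. The widest promoter peak had a median of 3068 bp (2883 to 3878) in members and 1681 bp in other genes with a peak. The mean share of the promoter window under peaks was 71.3% in members and 31.9% in others. Members had more annotated starts than other genes (a median of 8 against 5), yet their windows were shorter in total (a median of 3716 bp against 4700.5 bp).

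At the strictest limit tried, a q-value under 1e-05, 70 of 81 members (86.4%, 77.3 to 92.2%) kept a sgNeg H3K27Ac peak, against 36.6% of the others. Among the 20000 peaks of the lowest p-values the shares were 78 of 81 (96.3%) and 49.0%. With the start of the gene record alone they were 92.6% and 71.6%. Both subunits were alike within their intervals, with a median percentile of 98.5 (97.9 to 98.7) in the large and 98.6 (98.0 to 98.7) in the small subunit and median widths of 3313 bp (2734 to 4327) and 3051 bp (2298 to 4063).

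H3K4me3 was found at every member promoter in sgNeg. All 81 members had a peak (100%, 95.5 to 100%), against 70.4% of all genes tested. The median percentile was 99.1 (98.9 to 99.4) in members and 88.8 in the others, and 43 of 81 members (53.1%) were at or above the 99th percentile, against 16.5%. The median width was 1365 bp (1153 to 1607) in members and 718 bp in other genes with a peak. At a q-value under 1e-05, 79 of 81 members kept a peak, against 55.0% of the others.

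The position of each mark along the genes is described apart, because H3K27Ac peaks were called broad and H3K4me3 peaks narrow. The start was the GENCODE canonical start for H3K27Ac and the RefSeq gene record start for H3K4me3, so the shapes of the marks cannot be compared directly. H3K27Ac lay over the canonical start of 75 of 81 members (92.6%) and over the position 100 bp downstream of 78 of 81 (96.3%). H3K4me3 seldom lay over the gene record start, with a peak there in 6 of 81 members (7.41%, 3.44 to 15.2%) and 11.9% of other genes. It was most frequent 400 bp downstream, in 74 of 81 (91.4%). In the other genes the highest share was 43.2%, at 300 bp downstream. A smaller H3K4me3 shoulder lay on the other side, with 25 of 81 members (30.9%, 21.9 to 41.6%) under a peak 500 bp upstream, against 16.1% of other genes. The H3K4me3 summit lay a median of 671 bp (602 to 752) downstream of the start in members and 387 bp (381 to 395) in others with a peak, and it was downstream in 74 of 81 members. The widest H3K27Ac peak spanned the start in 70 of 79 members and then reached a median of 902 bp (721 to 1123) upstream and 2215 bp (1955 to 2868) downstream. In other genes these medians were 885 bp and 1095.5 bp, so the members' peaks were wider mainly on the side of the gene body. At 5 kb downstream, 30 of 81 members (37.0%) lay under H3K27Ac, against 16.4% of the others, and 2 of 81 (2.47%) lay under H3K4me3, against 5.35%. At 5 kb upstream the H3K27Ac shares were 24.7% and 14.9%. Peaks at these distances need not be the promoter peak.

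**Figure D2:**
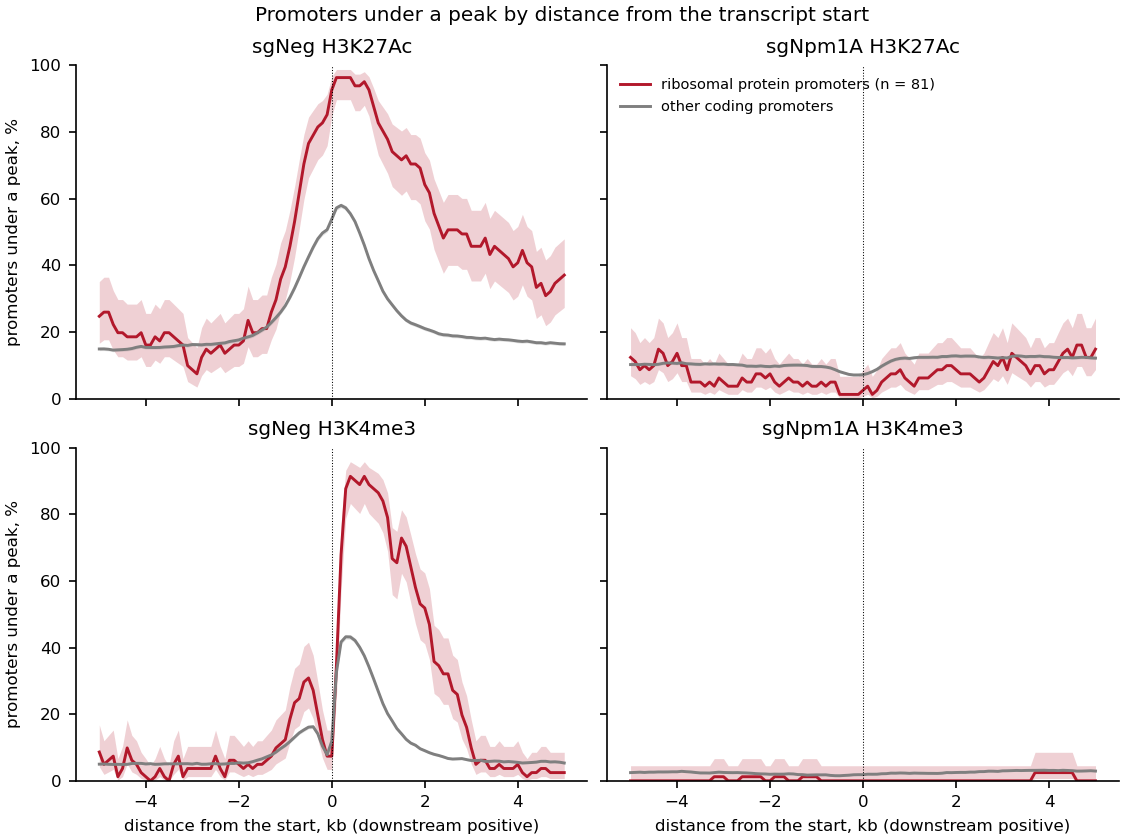
Share of promoters under a peak, in percent, by distance from the start in kb, for 81 ribosomal protein genes (red) and all other coding genes (grey) in the 4 peak lists, with shaded 95% Wilson intervals. The start is the canonical start for H3K27Ac and the gene record start for H3K4me3. In sgNeg, H3K27Ac covered 96.3% of members 100 bp downstream and H3K4me3 91.4% of them 400 bp downstream, while in both sgNpm1A lists no rise at the start is seen.

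The members were set beside other gene groups with a role in translation. They had wider peaks than the mitochondrial ribosomal protein and initiation factor genes, but not a clearly higher share of promoters with a peak than the mitochondrial group. Of 78 mitochondrial ribosomal protein genes 98.7% had a sgNeg H3K27Ac peak, and their median width was 2008 bp (1777 to 2622). Of 53 translation initiation factor genes 90.6% had one, with a median width of 2536 bp (2142 to 2793). The median percentile of the initiation factors, 98.8 (97.8 to 99.2), was not below that of the members. The H3K4me3 medians were 850 bp (779 to 978) for the mitochondrial group and 1042 bp (847 to 1136) for the initiation factors, both with intervals below the 1153 to 1607 bp of the members. Other promoters of the same sgNeg H3K27Ac strength, between the quartiles of the members at percentiles 97.7 and 99.0, numbered 3144 and had a median width of 2255.5 bp (2211 to 2323). For H3K4me3 the 3231 other promoters between percentiles 98.6 and 99.6 had a median width of 1078 bp (1061 to 1092).

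**Figure D3:**
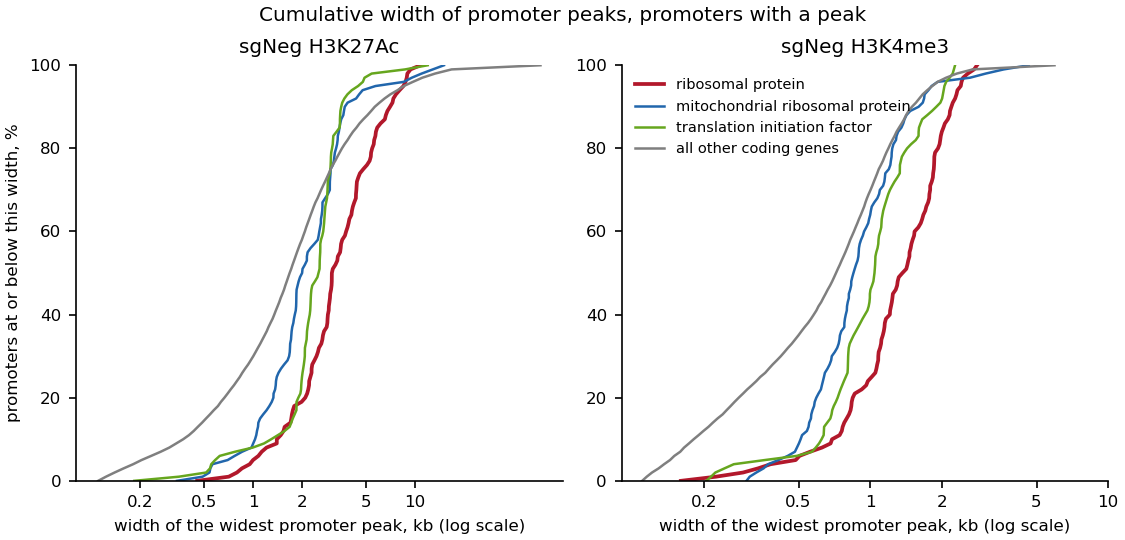
Cumulative share of promoters, in percent, by the width of the widest promoter peak in kb on a log scale, in the sgNeg lists and for promoters with a peak. The curve of the ribosomal protein genes (red) crosses 50% at 3068 bp for H3K27Ac and 1365 bp for H3K4me3, to the right of the mitochondrial ribosomal protein genes (blue), the translation initiation factors (green) and all other coding genes (grey).

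The stalk proteins recruit translation factors to the ribosome. At RPLP0, sgNeg had a 4.23-fold H3K27Ac peak of 7851 bp (GRCh37 chr12:120631828-120639678, percentile 96.9) and a 9.15-fold H3K4me3 peak of 1527 bp (GRCh38 chr12:120199474-120201000, percentile 99.2), and sgNpm1A had no peak of either mark. At RPLP1 the sgNeg fold enrichment was 6.39 for H3K27Ac and 10.6 for H3K4me3, and sgNpm1A had no peak of either mark. At RPLP2 the sgNeg fold enrichment was 5.30 for H3K27Ac and 14.6 for H3K4me3, and sgNpm1A had a 2.67-fold H3K27Ac peak of 199 bp and no H3K4me3 peak. The stalk genes were thus strongly marked in sgNeg, and the only peak among them in sgNpm1A was near the lowest fold enrichment of its list, 2.66.

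RPL5 and RPL11 form, with the smallest ribosomal RNA, the particle that binds MDM2 and stabilizes p53 when ribosome assembly is disturbed. At RPL5 the sgNeg percentile was 99.5 for H3K27Ac (6.62-fold, 1112 bp) and 99.4 for H3K4me3 (9.78-fold, 1229 bp), and the sgNpm1A percentile was 29.5 for H3K27Ac. At RPL11 the sgNeg percentile was 95.1 for H3K27Ac (3.75-fold, 805 bp) and 96.8 for H3K4me3 (5.82-fold, 1463 bp). RPL11 was therefore among the weaker members in sgNeg, and it had no peak of either mark in sgNpm1A.

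RPS14 and RPS19, whose loss disturbs red cell formation, were both high in sgNeg. At RPS14 the H3K27Ac fold enrichment was 5.36 in sgNeg and 2.94 in sgNpm1A, over 4984 bp and 837 bp. At RPS19 it was 6.84 in sgNeg and 2.93 in sgNpm1A, over 3464 bp and 162 bp. Neither had a sgNpm1A H3K4me3 peak, against sgNeg fold enrichments of 8.53 at RPS14 and 10.6 at RPS19. RPS6 was at percentiles of 98.7 (H3K27Ac) and 97.4 (H3K4me3) in sgNeg, and RPSA, which encodes a protein of the small subunit also known as the laminin receptor, was at 98.8 and 97.7. Neither RPS6 nor RPSA had a peak of either mark in sgNpm1A.

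Among the large subunit genes of the fixed list, RPL22, a gene deleted in some leukemias, was at sgNeg percentiles of 99.4 for H3K27Ac and 99.1 for H3K4me3 and at 43.4 for H3K27Ac in sgNpm1A. RPL3, which encodes a protein near the peptidyl transferase center, had a sgNeg H3K27Ac peak of 8971 bp (GRCh37 chr22:39707792-39716762) but a H3K4me3 peak of only 832 bp. In sgNpm1A it had 4 separate H3K27Ac peaks. The widest was 1005 bp wide, and the strongest, a different one, was at percentile 69.2. RPS18 had sgNeg peaks of 8800 bp for H3K27Ac (GRCh37 chr6:33238857-33247656) and 2714 bp for H3K4me3 (GRCh38 chr6:33272355-33275068). In sgNpm1A it had 2 H3K27Ac peaks, the wider of 490 bp.

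The highest sgNeg H3K27Ac peaks among members were at RPS29 (10.2-fold, percentile 99.96), RPL36AL (8.71-fold), RPL7 (8.65-fold), RPL6 (7.46-fold) and RPL37 (6.87-fold). Those of RPS29 and RPL6 did not cover the canonical start and lay near another annotated start. The widest H3K27Ac peaks were at RPL23A (10820 bp), RPL8 (9017 bp) and RPL3. The highest sgNeg H3K4me3 peaks were at RPL28 (17.1-fold, percentile 99.98), RPL8 (16.2-fold), RPLP2, RPL37 (13.7-fold) and RPL13 (13.3-fold, tied with RPS7), and the widest were at RPL23 (2811 bp), RPS18 and RPL37 (2476 bp). The leading genes of the marks were largely different, and only RPL37 was in both lists of 5. RPS29 led for H3K27Ac but was at percentile 97.9 for H3K4me3, and RPL28 led for H3K4me3 but was at percentile 96.7 for H3K27Ac. Across the 79 members with both marks, Spearman's rho between the marks was 0.41 for width and 0.20 for percentile, and without the paralogs it was 0.29 and 0.17 (72 genes). Without the paralogs, the sgNeg fold enrichment ran from 3.75 at RPL11 to 10.2 at RPS29 for H3K27Ac (median 5.27, 72 genes) and from 5.82 at RPL11 to 17.1 at RPL28 for H3K4me3 (median 9.36, 73 genes). RPL11 was thus the lowest standard member for both marks. The correlations are across genes of a single library per mark and are given as a description.

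**Figure D4:**
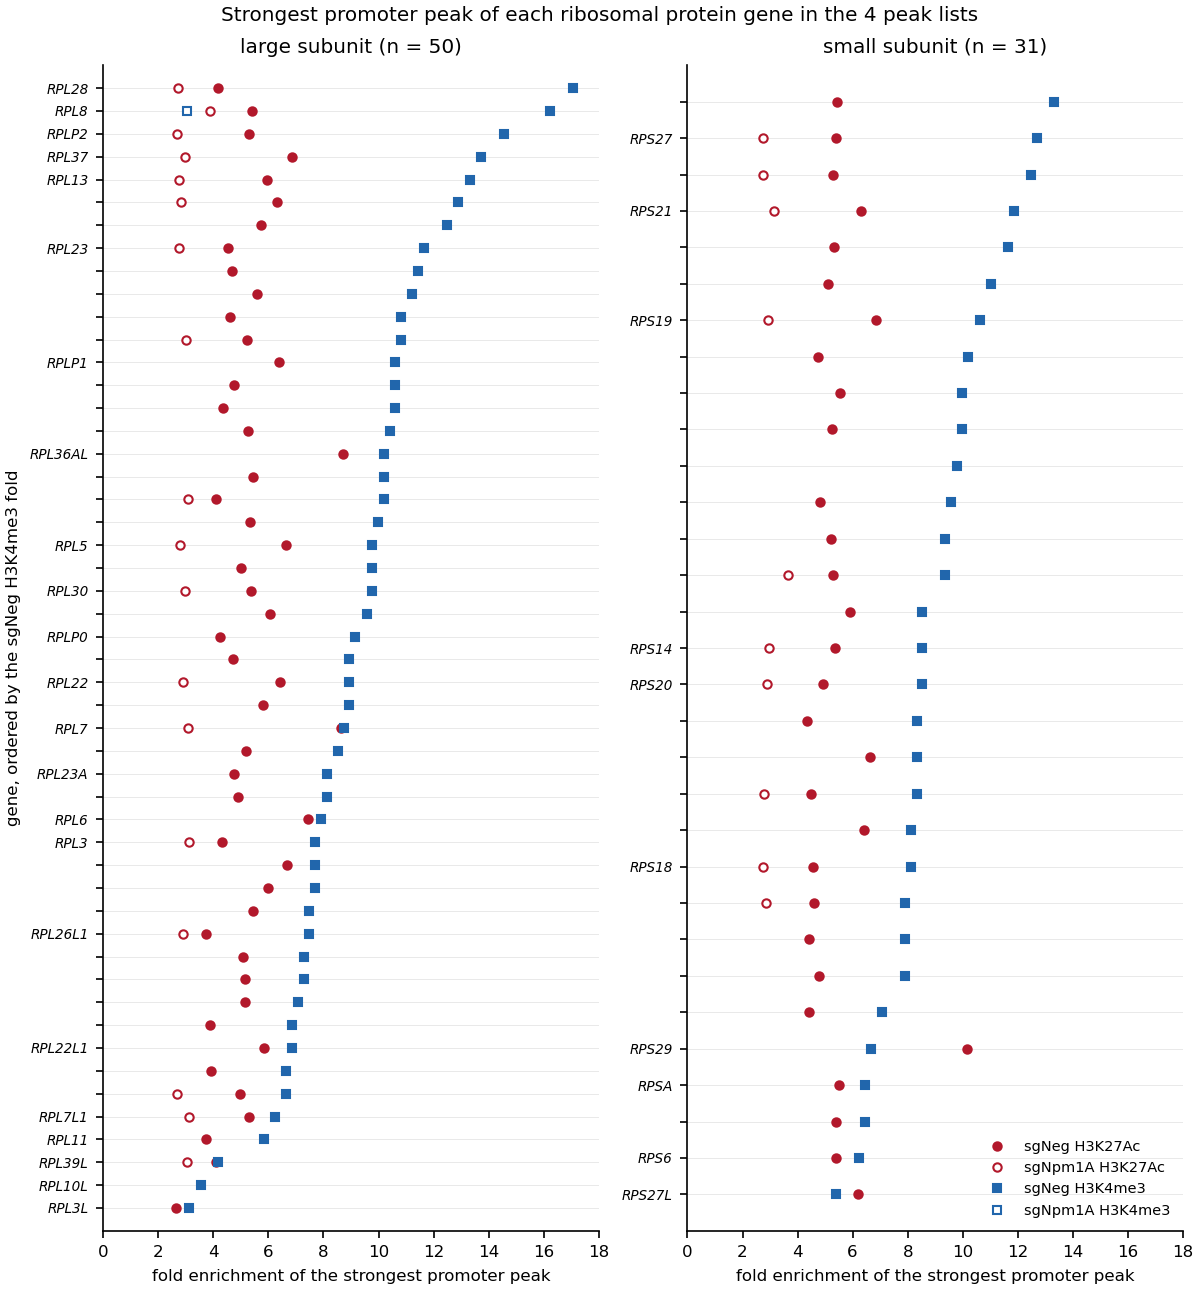
Fold enrichment of the strongest promoter peak of each of the 81 ribosomal protein genes, with genes on the vertical axis ordered by sgNeg H3K4me3 and some of them labelled. Filled red circles are sgNeg H3K27Ac, open red circles sgNpm1A H3K27Ac, filled blue squares sgNeg H3K4me3 and the open blue square sgNpm1A H3K4me3, and a gene without a peak has no symbol. The sgNpm1A symbols lie between 2.67 and 3.87, left of the sgNeg symbol of the same mark in each gene that has both.

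The comparison of the guides asked how the marks at these promoters differed after mtNPM1 knockout (KO). In the sgNpm1A list a H3K27Ac peak was present at 28 of 81 members (34.6%, 25.1 to 45.4%), against 59.7% of all genes tested. A peak was in both lists at 28 members, in sgNeg alone at 51 (63.0%, against 26.6% of all genes) and in sgNpm1A alone at 0 (against 5.04%), and 2 members had none. The percentile was lower in sgNpm1A at 79 of 79 members with a sgNeg peak, against 82.6% of all genes with one. The median change was -97.8 percentile points (-98.4 to -95.8) in members and -33.6 in the others. Members began near the top of the sgNeg list and a missing peak counts as 0, so a fall was nearly fixed by the measure. Other promoters of the same sgNeg strength had a median sgNpm1A percentile of 31.5 (26.5 to 36.8), against 0 in members. Only 6.55% of those promoters were at or above percentile 95 in sgNpm1A. At all 28 members with both the widest peak was narrower in sgNpm1A, as it was at 7346 of 10473 other genes with a peak in both lists. The median ratio of widths was 0.157 in these members, against 0.533 in those other genes. The width in sgNpm1A had a median of 413 bp (275 to 742) and a range of 155 to 3621 bp, and the fold enrichment did not exceed 3.87. By the same count 43.6% (33.1 to 54.6%) of the mitochondrial ribosomal protein genes and 62.3% (48.8 to 74.1%) of the initiation factor genes had a sgNpm1A H3K27Ac peak.

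The share in sgNpm1A was lower than that of other promoters which were as strong in sgNeg. Of the 3144 other promoters between percentiles 97.7 and 99.0 of the sgNeg list, 60.4% (58.7 to 62.1%) had a sgNpm1A H3K27Ac peak, and their windows were longer (a median of 6041.5 bp against 3716 bp in members). In windows 20 kb upstream, 54.3% of members (43.5 to 64.7%) and 56.7% of other genes had a sgNpm1A H3K27Ac peak, and in windows 20 kb downstream 53.1% (42.3 to 63.6%) and 58.2%. There the intervals of the members held the share of the others. The 28 members with a sgNpm1A peak at their starts compare with 44 and 43 that had one 20 kb away. Only 2 of 81 members (2.47%, 0.680 to 8.56%) had one over the canonical start, against 7.15% of the others. Both shares depended on the limits set, and the share of members was below that of the others under each limit named here. With a q-value under 0.01 the shares were 8.64% of members and 32.0% of others, among the 20000 peaks of the lowest p-values 2.47% and 7.56%, and with the start of the gene record alone 19.8% and 33.9%. At a q-value under 1e-05 no member (0 of 81, up to 4.53%) and 0.945% of the others had a peak, and at this limit, as among the 20000 peaks, the interval of the members held the share of the others.

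Where a sgNpm1A H3K27Ac peak was counted, it usually did not lie at the canonical start. Of the 28 members with one, 2 had it over the canonical start (RPL8 and RPS27), 5 within 500 bp of it, 6 farther but within 1000 bp and 15 beyond that, near another annotated start. Off-start peaks were the rule in other genes as well, where 11443 had a sgNpm1A H3K27Ac peak and 1369 had one over the canonical start. In the members the median distance was 1066.5 bp, and 26 of the 28 overlapped a sgNeg peak. Distances and this overlap are not given for other genes. The exceptions were the paralogs RPL26L1 and RPL39L. Among the highest percentiles were those at RPL8 (97.0), RPS21 (73.0, 338 bp), RPL7L1 (69.9, 1250 bp) and RPL3 (69.2). At RPL8 the widest peak, of 3621 bp, was a different one from the strongest and had a fold enrichment of 3.41.

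For H3K4me3 a sgNpm1A peak was present at 1 of 81 members (1.23%, 0.218 to 6.67%), against 9.93% of all genes tested. A peak was in sgNeg alone at 80 members (98.8%, against 62.2% of all genes) and in sgNpm1A alone at none (0 of 81, against 1.76%). The percentile was lower in 81 of 81 members, against 96.2% of all genes with a sgNeg peak. Here too the high sgNeg rank of the members made a fall nearly fixed. Of other promoters of like sgNeg strength, 0.340% were at or above percentile 95 in sgNpm1A. The single gene was RPL8, which encodes a large subunit protein close to the peptidyl transferase center. Its H3K4me3 peak was 2424 bp wide with a fold enrichment of 16.2 in sgNeg and 384 bp wide with a fold enrichment of 3.05 in sgNpm1A, at percentile 9.84 of that list. Windows within 500 bp of a start held no member with a sgNpm1A H3K4me3 peak and 6.40% of the others. Of the 3231 other promoters of like sgNeg strength 3.40% (2.83 to 4.09%) had a sgNpm1A H3K4me3 peak, which lies within the interval of the members. Windows 20 kb upstream held one in 14.8% of members (8.68 to 24.1%) and 12.9% of the others. In both sgNpm1A lists the other coding promoters showed no rise of peaks at the start either, and the part of the library in these differences was not tested. Cell type markers were also read in sgNpm1A. Of the myeloid markers 5 of 8 had a sgNpm1A H3K27Ac peak, with a median percentile of 53.6, against 59.7% of all genes with a peak. A sgNpm1A H3K4me3 peak was present at 0 of 8, against 9.93% of all genes. These counts are close to the shares of all genes. The H3K27Ac percentile of PAX5 was 98.1 in sgNpm1A, above its 66.8 in sgNeg, and that of CD79A was 36.5. The T cell genes CD3E, CD3D and LCK were at 11.2, 52.8 and 93.7 in sgNeg and higher, at 30.4, 63.1 and 96.2, in sgNpm1A, where CD3D also had a H3K4me3 peak at percentile 92.6. KLF1 and HBB were at 46.2 and 93.1 in sgNeg and lower, at 19.8 and 29.3, in sgNpm1A. The part of these cell types in the result was not tested.

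**Figure D5:**
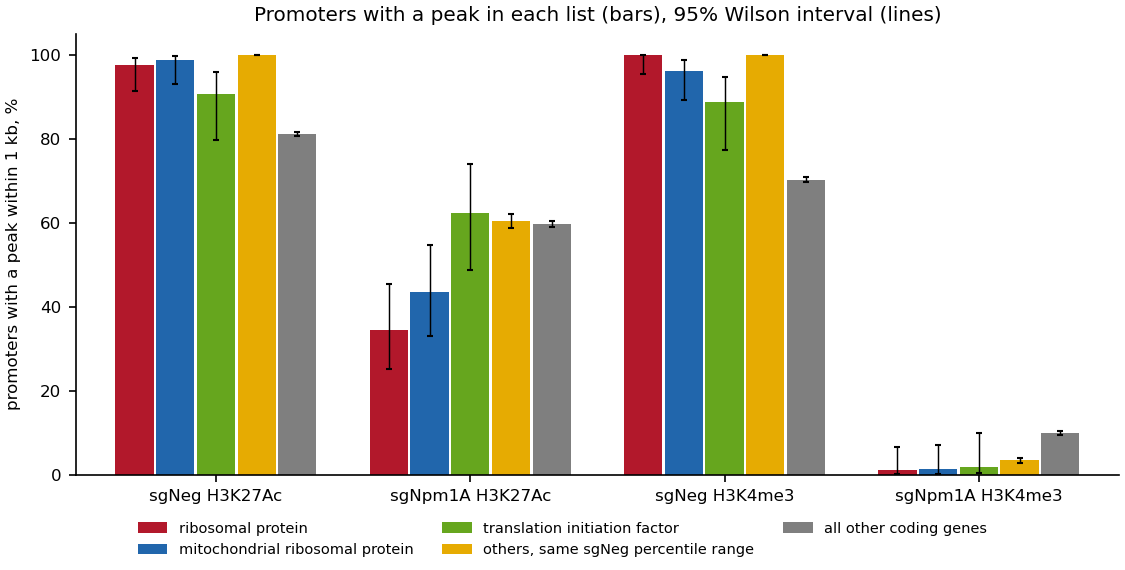
Share of promoters with a peak within 1 kb of a start, in percent, in the 4 lists for ribosomal protein genes (red), mitochondrial ribosomal protein genes (blue), translation initiation factors (green), other promoters in the range of sgNeg percentiles of the members (yellow) and all other coding genes (grey), with 95% Wilson intervals as lines. For sgNpm1A H3K27Ac the ribosomal protein genes, at 34.6%, lie below the 59.8% of all other genes.

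Chromosome 8 differed from the rest of the genome, a comparison made after the values were seen. It held 246.5 and 245.0 H3K27Ac peaks per Mb in sgNeg and sgNpm1A, against 106.3 and 102.7 on the other autosomes. For H3K4me3 it held 362.2 and 127.1 per Mb, against 110.2 and 32.3. The 4 members there, RPS20, RPL7, RPL30 and RPL8, all had a sgNpm1A H3K27Ac peak, against 24 of 77 members elsewhere (31.2%, 21.9 to 42.2%). Of other genes, 83.3% on chromosome 8 and 58.9% elsewhere had one. RPL8, the only member with a sgNpm1A H3K4me3 peak, is on chromosome 8, so without that chromosome the count was 0 of 77, against 9.50% of other genes.

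The paralogs did not share the uniform marking of the standard genes. RPL36AL, a retrocopy of RPL36A with a near-identical protein, had the second highest H3K27Ac percentile of all members, at sgNeg percentiles of 99.9 for H3K27Ac and 99.5 for H3K4me3. RPL22L1 was at 99.0 and 98.0, RPS27L, a p53 target, at 99.3 and 95.9, RPL7L1 at 98.6 and 97.4, and RPL26L1 at 94.9 and 98.4. RPL39L, known from the testis, was at 96.6 and 85.2. RPL3L, the heart and skeletal muscle form of RPL3, was at 26.1 and 34.4, with peaks of 451 bp and 241 bp. RPL10L had no H3K27Ac peak and a H3K4me3 peak of 160 bp at percentile 62.6. The median H3K4me3 width of the 8 paralogs was 575.5 bp, against 1461 bp (1229 to 1704) in the other 73 members, all of which were at or above percentile 96.8 for H3K4me3.

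Features of the genes that the rule did not use were set beside the widths. Members whose introns hold small nucleolar RNA (snoRNA) genes, which guide the modification of ribosomal RNA, numbered 27 with 58 snoRNA genes. Their sgNeg H3K27Ac peaks had a median width of 4327 bp (2890 to 5751), against 2962 bp (2437 to 3485) in members without one. For H3K4me3 the medians were 1245 bp (1129 to 1832) and 1432.5 bp (1086 to 1664), so the order was turned and the intervals overlapped for both marks. Of the members, 17 had the start of another coding gene on the opposite strand within 1 kb. Their H3K27Ac width was 4613 bp (3065 to 5751), against 2962 bp (2508 to 3485), and their H3K4me3 width was 1832 bp (1483 to 1992), against 1221 bp (1086 to 1463), the latter with intervals apart. The 12 members on chromosome 19 had a median H3K27Ac width of 4195 bp (3464 to 6597), against 2992 bp (2688 to 3485), but a percentile of 97.8 (97.2 to 98.6), against 98.6 (98.4 to 98.7). Members with a TOP-like tract had a median H3K4me3 width of 1463 bp (1213 to 1725, 53 genes), against 844 bp (355 to 1306, 11 genes) in those where none was found. Their H3K27Ac widths were 3464 bp (2935 to 4319) and 2089.5 bp (1150 to 3120), and the intervals overlapped for both marks. The group without a tract holds RPL6, RPL26L1 and RPS29, which were read away from their record or canonical start. It also holds 4 paralogs, and the 8 paralogs together had a median H3K4me3 width of 575.5 bp, so tract and paralog status are mixed here. No test was made between these groups of members. No 2 members shared a promoter peak.

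Genes outside the rule whose transcripts carry a TOP motif or encode a fused ribosomal protein were a list of 17, among them elongation factors, FAU, PABPC1 and NPM1 itself. All 17 had a sgNeg H3K27Ac peak (median percentile 99.1), against 81.2% of all genes, and a sgNeg H3K4me3 peak (98.9), against 70.4%. In sgNpm1A, 10 of 17 (58.8%, 36.0 to 78.4%) had a H3K27Ac peak, against 59.7% of all genes. A sgNpm1A H3K4me3 peak was present at 1 of 17 (5.88%), and the interval of that share held the 9.93% of all genes. EEF1A1, the main elongation factor of translation, was at H3K27Ac percentiles of 99.8 in sgNeg and 51.9 in sgNpm1A. EEF2, which moves the ribosome along the message, was at 97.6 and 74.7. PABPC1, the poly(A) binding protein, was at 99.9 and 71.4. NPM1 and TPT1, the latter encoding an abundant tumor protein, had no sgNpm1A peak of either mark. The interval of this list for sgNpm1A H3K27Ac held the 59.8% of the other genes and began just above the members' share of 34.6%, but the interval of the members overlapped it. In sgNeg the widths of this list were close to those of the members, with medians of 2958 bp (2392 to 6372) for H3K27Ac and 1289 bp (996 to 1995) for H3K4me3.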

How the data were processed

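ChIPmentation libraries of OCI-AML3 cells were analysed as 4 peak lists, 1 per guide and mark, and the 2 inputs were not used. Groups came from the sample titles. The submitters' processing notes name bcl2fastq 2.17, Trimmomatic 0.33, Bowtie 1.1.2, MACS2 2.1.0, deepTools and hg38, with no roles. The authors called peaks per library, broad for H3K27Ac and narrow for H3K4me3, and how the inputs entered was not given in the sources used here. Fold enrichment, as deposited, is a ratio to the expected pileup, given for the summit (H3K4me3) or as the mean of the region (H3K27Ac). The −log10 p-value and −log10 q-value in the deposited lists served to filter and rank peaks. The deposited score repeats the q-value in integer form and was not used. No shift for Tn5 was stated, which would move edges by a few bases.

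The H3K27Ac lists reach 249218478 on chromosome 1, past its end on GRCh38, and the H3K4me3 lists reach 83201881 on chromosome 17, past its end on GRCh37, which set the builds, and nothing was converted. GRCh37 starts were all transcript starts of GENCODE 44. GRCh38 starts were the RefSeq gene record start and that of the RefSeq promoter table, and 347 genes without a strand were left out. Python 3.11.15, pandas 2.3.3, numpy 2.4.6 and scipy 1.17.1 were used, and the scripts were tested on simulated peaks. Intervals (95%) cover counting error only and are Wilson for shares and exact order statistics for medians. Members named were the 5 highest and 3 widest in sgNeg per mark, those without a sgNeg peak, the 5 highest in sgNpm1A H3K27Ac, any with a sgNpm1A H3K4me3 peak, a fixed list of known genes and the paralogs. A few genes that these rules and lists name are not reported here. The members and lists were chosen with earlier results of these data known. Alternatives changed the window, the peak limit, the starts, the ranking value and the members.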

Additional observations from a re-analysis of the deposited data

How the results depend on the processing

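Each list's share, median percentile and median width at ribosomal protein promoters was recomputed under the alternatives. Of 95 recomputed values 77 stayed within the interval of the reported value, or equal to it where there was no interval. Their number includes the sgNpm1A median percentiles, which stay at 0 as long as most members have no peak. It also includes values of the sgNpm1A H3K4me3 width, which rests on 1 member and has no interval. The values that moved were as follows. With a q-value under 0.01 the sgNeg H3K27Ac percentile was 93.4, the sgNpm1A H3K27Ac share was 8.64% and its width 788 bp (7 members). With a q-value under 1e-05 the sgNeg H3K27Ac share was 86.4% and its percentile 49.8, the sgNeg H3K4me3 percentile was 96.3, and both sgNpm1A shares were 0%, so no width could be given. Among the 20000 peaks of the lowest p-values the sgNeg percentiles were 76.3 (H3K27Ac) and 84.9 (H3K4me3), the sgNpm1A H3K27Ac share was 2.47% and its width 1278.5 bp (2 members), wider than the 828 bp of the other genes, whereas with all peaks the members were narrower (413 bp against 829 bp), and the sgNpm1A H3K4me3 share was 0%. Percentiles fall under these limits by construction, since weak peaks leave the list. A window of 2 kb gave a sgNpm1A H3K27Ac share of 46.9% and a sgNpm1A H3K4me3 width of 350 bp, a window of 500 bp gave a sgNpm1A H3K4me3 share of 0%, and the gene record start alone gave a sgNpm1A H3K27Ac share of 19.8%. Leaving out members on chromosome 8, an alternative added after the values were seen, gave a sgNpm1A H3K4me3 share of 0%. No paired analysis was possible because each group is 1 library.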
